A study of Mus musculus with 14 samples.

Results

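Gene deserts are long stretches of the genome that hold no protein-coding gene, and methylated regions in these stretches were examined in 14 mouse MBD-seq samples. A methylated region was a peak of captured DNA in the list deposited for a sample. Members were the peaks on chromosomes 1 to 19 whose summit, the position of most tags, lay more than 200 kb from the body of every protein-coding gene of the mouse genome of NCBI build 37 (mm9). There were 106924 such peaks among 1012200 peaks on these autosomes and 1063163 peaks on all chromosomes, and a sample held between 4493 and 10122 of them.

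In MBD-seq, sonicated genomic DNA is pulled down by the domain of a protein that binds methylated CpGs and is then sequenced. Induced pluripotent stem (iPS) cells were present as 4 clones that carry Aid (Aid+/+ iPS cells) and 4 clones in which Aid is disrupted (Aid-/- iPS cells). They stood beside 3 lines of embryonic stem (ES) cells and 3 primary cultures of embryonic fibroblasts (MEFs) of Aid+/+ genotype. The iPS clones had been made from MEFs of their own genotype. The study compared DNA methylation between the genotypes of iPS cells. iPS cells and MEFs were male, carried a Nanog-GFP reporter and had a mixed C57BL6, DBA and 129S4 background. Each iPS sample was 1 clone at passage 6, grown on gelatin at the end so that feeder cells were removed, and each MEF sample was a culture at passage 3. The ES lines were RF8 (replicate 1; 129SV, male, passage 19), MG1.19 (replicate 2; 129Ola, male) and B6 ES (replicate 3; C57BL6), and the labels gave them no genotype for Aid. MEFs are a mixed primary culture, and the labels name no cell type beyond MEF. Replicate numbers only name the samples. By the leading number of their titles, iPS replicates 1 and 2 of each genotype shared a clone series, as did replicates 3 and 4. Aid+/+ iPS replicates 3 and 4 and Aid-/- iPS replicates 1 and 2 were of the same series.

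In fibroblasts and other differentiated cells, long domains of gene-poor and CpG-poor DNA are known to be only partly methylated, whereas in pluripotent stem cells most of the genome outside CpG islands is highly methylated. Such domains often replicate late and lie at the nuclear periphery. Much of the DNA between genes derives from repeated sequences, which DNA methylation helps to silence. MBD capture favours methylated DNA that is dense in CpGs, so that methylated DNA with few CpGs gives little signal.

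Deserts covered 444 Mb, or 18.6% of the autosomal sequence, and held 12.2% of its CpGs. They held 5.61 CpGs per kb against 9.17 in the rest of the autosomes. GC content was 38.5% in deserts and 42.7% in the rest. Of the stretches between a pair of neighbouring genes, 753 held desert sequence, with a median desert length of 355 kb, and 146 of these deserts were longer than 1 Mb. Few desert peaks lay in annotated genes of other kinds, such as pseudogenes and non-coding transcripts (2.85% of desert peaks, against 2.26% of desert windows of 1 kb). Copy number was a further property of the sequence. A peak was called single-copy when 3 words of 31 bases at and beside its summit occurred a median of 1 time in the genome assembly. It was called multi-copy when this median was higher. By the same measure 16.6% of desert windows and 12.2% of other windows were multi-copy. This division was chosen after the values of all peaks had been seen.

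Libraries held 20.1 to 36.9 M total tags (M, mega) and 6.65 to 19.6 M filtered tags. Each sample had 33694 to 110943 peaks on all chromosomes, and 16.7% to 62.5% of its filtered tags lay in peaks. ES replicate 2 stood apart with the fewest peaks and the smallest share of tags in peaks. The number of desert peaks did not follow the filtered tags. Aid+/+ iPS replicate 4 had the most desert peaks (10122) with 9.63 M filtered tags, and MEF replicate 1 had 5805 with the most filtered tags (19.6 M). Since the samples differed in their number of peaks, deserts were compared with the rest of the autosomes of the same sample. Every MEF culture held more filtered tags (17.5 to 19.6 M) than every Aid+/+ iPS clone (9.63 to 15.9 M), so that raw tag counts of these groups were not at equal depth. Nanog, a transcription factor of pluripotent cells, held no peak over its gene body and the 2 kb before it in the 11 iPS and ES samples. MEF replicate 1 had 2 peaks with 52 tags there, MEF replicate 2 had 1 peak with 50 tags and MEF replicate 3 had none. In the closest pair of samples, 0.00119% of peaks were identical, and no sample was merged with another.

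The regions that differed most plainly between MEFs and Aid+/+ iPS cells had different kinds of sequence. Shown first are 300 bases around the summit of 3 desert regions, each the first of its list, with every CpG in capitals. The first lay at chr4:152392752-152393051 and had a peak in every Aid+/+ iPS clone and in no MEF culture. The second lay at chr2:17051810-17052109 and had a peak in every MEF culture and in no Aid+/+ iPS clone. The third, at chr5:59116123-59116422, had a peak in every sample of both groups and the smallest p for more tags in MEFs. All are given on the plus strand of NCBI build 37.
iPS region near Ajap1: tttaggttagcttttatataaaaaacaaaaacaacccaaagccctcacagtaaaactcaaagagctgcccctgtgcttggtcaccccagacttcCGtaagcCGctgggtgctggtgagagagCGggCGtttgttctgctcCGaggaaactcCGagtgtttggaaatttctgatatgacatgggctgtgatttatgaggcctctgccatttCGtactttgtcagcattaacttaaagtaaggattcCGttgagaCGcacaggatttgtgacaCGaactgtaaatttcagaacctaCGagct
MEF region near Nebl: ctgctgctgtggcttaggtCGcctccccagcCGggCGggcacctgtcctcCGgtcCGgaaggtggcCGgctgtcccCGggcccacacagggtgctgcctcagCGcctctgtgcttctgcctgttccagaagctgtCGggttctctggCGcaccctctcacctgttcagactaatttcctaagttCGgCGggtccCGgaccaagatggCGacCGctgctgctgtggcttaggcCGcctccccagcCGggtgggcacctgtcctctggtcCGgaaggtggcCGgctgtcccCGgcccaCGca
MEF region near Pcdh7: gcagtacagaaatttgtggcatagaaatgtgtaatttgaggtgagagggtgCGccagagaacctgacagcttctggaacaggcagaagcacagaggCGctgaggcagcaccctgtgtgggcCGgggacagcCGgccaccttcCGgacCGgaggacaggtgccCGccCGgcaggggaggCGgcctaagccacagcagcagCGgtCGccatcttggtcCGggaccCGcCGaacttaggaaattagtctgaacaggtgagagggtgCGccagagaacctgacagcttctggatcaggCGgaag
The iPS region held 11 CpGs in these bases, a GC content of 45.3% and a single copy of its summit words in the genome. The MEF regions held 21 and 16 CpGs and a GC content of 68.3% and 61.0%, and their summit words had a median of 26 and 2166 copies. Both MEF sequences held the same word of 20 bases, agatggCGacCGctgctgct, which stands on the plus strand in the region near Nebl and on the minus strand in the region near Pcdh7. How tags that match several places were placed by the aligner is not given in the sources used here, so that a tag count in multi-copy sequence need not come from that copy alone.

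The first question was whether MEFs lacked methylated regions in deserts more than elsewhere. They did not when all peaks were counted. MEFs had fewer desert peaks than iPS cells, but their deficit was larger in the rest of the autosomes, and the desert share of peaks was higher in MEFs. In Aid+/+ iPS cells deserts held 20.5 ± 2.19 peaks per Mb (SD, n = 4). They held 18.98 ± 1.48 in Aid-/- iPS cells (SD, n = 4), 15.1 ± 5.71 in ES cells (SD, n = 3) and 12.5 ± 2.10 in MEFs (SD, n = 3). The rest held 41.6 ± 6.57, 37.7 ± 5.15, 28.99 ± 17.0 and 20.1 ± 5.04 peaks per Mb, respectively. Desert peaks held 7.42% ± 0.422 of filtered tags in Aid+/+ iPS clones, 7.05% ± 0.626 in Aid-/- iPS cells, 4.42% ± 1.38 in ES cells and 3.41% ± 0.712 in MEFs.

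The desert share of autosomal peaks was 10.5%, 10.5%, 9.98% and 9.51% in the 4 Aid+/+ iPS clones. It was 10.1%, 9.84%, 10.2% and 11.3% in the Aid-/- iPS clones, and 10.96%, 14.2% and 9.29% in the ES lines. The MEF cultures had 12.7%, 11.6% and 13.6%. All 3 MEF values lay above those of both iPS groups, and the ES values spanned them. MEFs exceeded Aid+/+ iPS cells by 2.50 percentage points (two-sided exact permutation test, p = 0.0286, which no arrangement of 4 against 3 samples can go below; 0.190 after adjustment over 20 tests) and Aid-/- iPS cells by 2.27 points (exact permutation test, p = 0.0286; adjusted 0.190). The difference from ES cells was 1.14 points (exact permutation test, p = 0.6). The iPS genotypes differed by 0.232 points (exact permutation test, p = 0.6), and ES from Aid+/+ iPS cells by 1.35 points (exact permutation test, p = 0.371). The samples differed in their number of peaks, and with the 31650 most significant peaks of each sample the excess over Aid+/+ iPS cells was 0.703 points (exact permutation test, p = 0.0571) and that over Aid-/- iPS cells 0.815 points (exact permutation test, p = 0.0571), past the threshold in neither. The authors' processing runs, read from the file headers, never held both MEFs and Aid+/+ iPS cells, so that run and cell type cannot be told apart there. Within the run of MEF replicate 1 and Aid-/- iPS replicate 3, the difference was 2.50 points with 1 sample each and no test.

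The excess was smaller in tags than in peaks. In Aid+/+ iPS cells, deserts held 13.6% ± 1.37 of the tags in peaks (SD, n = 4). The share was 13.6% ± 1.56 in Aid-/- iPS cells (SD, n = 4), 15.05% ± 4.23 in ES cells (SD, n = 3) and 14.8% ± 0.471 in MEFs (SD, n = 3). The groups overlapped, and MEFs did not differ from Aid+/+ iPS cells past the spread between samples (exact permutation test, p = 0.229). In every group the median desert peak held more tags than the median peak elsewhere. These medians were 53.0 and 39.8 tags in Aid+/+ iPS cells, 42.0 and 32.5 in Aid-/- iPS cells, 46.7 and 35 in ES cells, and 68.3 and 48.3 in MEFs, as means of the samples. Their ratio was 1.32 ± 0.134 in Aid+/+ iPS cells and 1.42 ± 0.133 in MEFs (exact permutation test, p = 0.4; n = 4 and 3). The median fold enrichment of desert peaks over the local background ranged from 14.3 in MEFs to 16.7 in Aid-/- iPS cells.

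**Figure D1:**
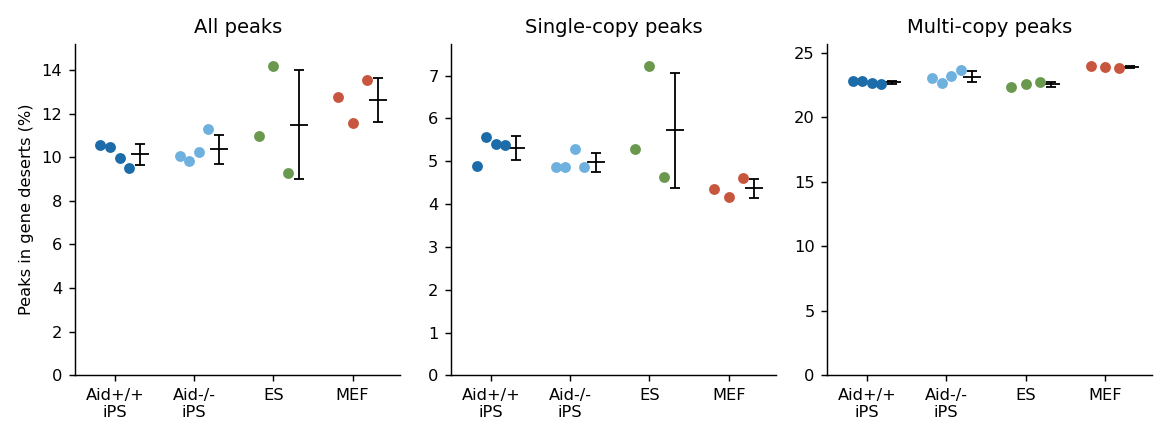
Share of autosomal peaks (%) with a summit in a gene desert, for all peaks, single-copy peaks and multi-copy peaks, with 1 point per sample and the mean ± SD of each group beside its points. MEFs lie above both iPS groups for all peaks (11.6% to 13.6%), below both for single-copy peaks (4.16% to 4.61%) and above both, by little, for multi-copy peaks (23.8% to 24.0%).

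Single-copy and multi-copy peaks gave opposite pictures. Multi-copy peaks made up most desert peaks in every sample, and more of them in MEFs. Their share of desert peaks was 61.9% ± 4.66 in Aid+/+ iPS clones, 66.0% ± 4.03 in Aid-/- iPS cells, 67.6% ± 4.64 in ES cells and 80.0% ± 2.16 in MEFs (SD, n = 4, 4, 3 and 3). In the rest of the autosomes it was 23.8%, 25.3%, 30.6% and 36.9%. Desert peaks with over 100 copies numbered 2918 ± 76.7 in Aid+/+ iPS cells and 2785 ± 293 in MEFs, whereas single-copy desert peaks numbered 3499 ± 778 and 1129 ± 301. The groups overlapped in the former number and not in the latter. Per Mb of desert, single-copy peaks numbered 7.88 ± 1.75 in Aid+/+ iPS cells and 2.54 ± 0.677 in MEFs. Aid-/- iPS cells had 6.50 ± 1.21 and ES cells 5.07 ± 2.61 single-copy peaks per Mb of desert. Desert peaks with over 100 copies held 51.3% ± 2.82 of the desert peak tags in Aid+/+ iPS cells and 61.7% in MEFs.

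Among single-copy peaks alone, the desert share was lower in MEFs. It was 4.89%, 5.56%, 5.41% and 5.37% in the Aid+/+ iPS clones and 4.87%, 4.88%, 5.29% and 4.86% in the Aid-/- iPS clones. The ES lines had 5.29%, 7.23% and 4.64%, and the MEF cultures 4.35%, 4.16% and 4.61%. Each MEF value lay below every value of the other groups, narrowly so for ES replicate 3. The difference was -0.936 points from Aid+/+ iPS cells (exact permutation test, p = 0.0571; 0.114 adjusted over the 20 tests on single-copy peaks), -0.603 from Aid-/- iPS cells (exact permutation test, p = 0.0286; adjusted 0.0952) and -1.35 from ES cells (exact permutation test, p = 0.1, the smallest that 3 against 3 samples allow). The difference from Aid+/+ iPS cells missed the threshold although the groups did not overlap, since another division of these 7 values gave a difference of means at least as large. Within the run of MEF replicate 1 and Aid-/- iPS replicate 3, it was -0.944 points, untested. With equal numbers of peaks, the difference from Aid+/+ iPS cells was -1.71 points (exact permutation test, p = 0.0286). Beyond 500 kb from genes, however, MEFs and Aid-/- iPS cells differed by 0.0413 points in the other direction (exact permutation test, p = 0.343).

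Tags of single-copy peaks followed their number. The desert share of single-copy tags was 4.21% ± 0.146 in MEFs, 5.14% ± 0.376 in Aid+/+ iPS cells (exact permutation test, p = 0.0286; adjusted 0.0952; n = 3 and 4) and 4.96% ± 0.499 in Aid-/- iPS cells (exact permutation test, p = 0.0571). One region near Pgk2, described below, held more of these tags in MEFs than in most iPS clones. Without it, an alternative chosen after the data were seen, the shares were 3.21% ± 0.0632, 4.83% ± 0.265 and 4.56% ± 0.258, and MEFs were lower than both iPS groups (exact permutation test, p = 0.0286 for each). The median single-copy desert peak also held fewer tags relative to the median single-copy peak elsewhere. This ratio was 0.756, 0.844 and 0.684 in MEFs and ranged from 0.867 to 0.968 over the 8 iPS clones, and MEFs were lower than either iPS group (exact permutation test, p = 0.0286 for each; adjusted 0.0952). With equal numbers of peaks the call was lost, with a difference of -0.0572 from Aid+/+ iPS cells (exact permutation test, p = 0.286) and of -0.0504 from Aid-/- iPS cells (exact permutation test, p = 0.457).

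Since deserts hold few CpGs, the comparison was repeated at equal CpG count. For each sample, the number of desert windows of 1 kb holding a summit was divided by the number that would hold one if desert windows had the rate of other windows of the same CpG count. Over all peaks this CpG-standardised ratio was 1.498 ± 0.0672 in Aid+/+ iPS clones, 1.53 ± 0.0980 in Aid-/- iPS cells, 1.53 ± 0.188 in ES cells and 1.70 ± 0.0541 in MEFs, so that desert windows held more summits than windows of like CpG count elsewhere. It was higher in MEFs than in Aid+/+ iPS cells (exact permutation test, p = 0.0286; adjusted 0.190; n = 3 and 4), but with equal numbers of peaks the difference was -0.0116 (exact permutation test, p = 0.857). In single-copy windows the order turned. The ratio was 1.03, 1.11, 1.08 and 1.07 in Aid+/+ iPS clones, 1.01, 1.00, 1.08 and 1.07 in Aid-/- iPS clones, 0.963, 0.998 and 0.950 in ES lines, and 0.858, 0.870 and 0.810 in MEFs. Every pluripotent sample lay above every MEF culture. The difference of MEFs was -0.229 from Aid+/+ iPS cells and -0.196 from Aid-/- iPS cells (exact permutation test, p = 0.0286 for each; adjusted 0.0952). It was -0.125 from ES cells (exact permutation test, p = 0.1).

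The deficit of MEFs grew with CpG count over the bands from 10 to 29 CpGs per window. In single-copy windows with 10 to 14 CpGs, desert windows held a summit 1.04 ± 0.0245 times as often as other windows in Aid+/+ iPS cells and 1.02 ± 0.0465 times in MEFs. With 15 to 19 CpGs the ratio was 1.10 ± 0.0411, 1.08 ± 0.0449, 1.07 ± 0.125 and 0.899 ± 0.0202 in Aid+/+ iPS cells, Aid-/- iPS cells, ES cells and MEFs. With 20 to 29 CpGs it was 0.997 ± 0.0454, 0.953 ± 0.0366, 1.03 ± 0.225 and 0.749 ± 0.00831. In this band 33.1% ± 5.26 of desert windows and 33.1% ± 4.59 of other windows held a summit in Aid+/+ iPS cells, against 11.8% ± 4.30 and 15.6% ± 5.61 in MEFs. The highest band, of 30 CpGs or more, had ratios above 1 in every group, with 1.79 ± 0.258 in Aid+/+ iPS cells and 1.24 ± 0.139 in MEFs.

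**Figure D2:**
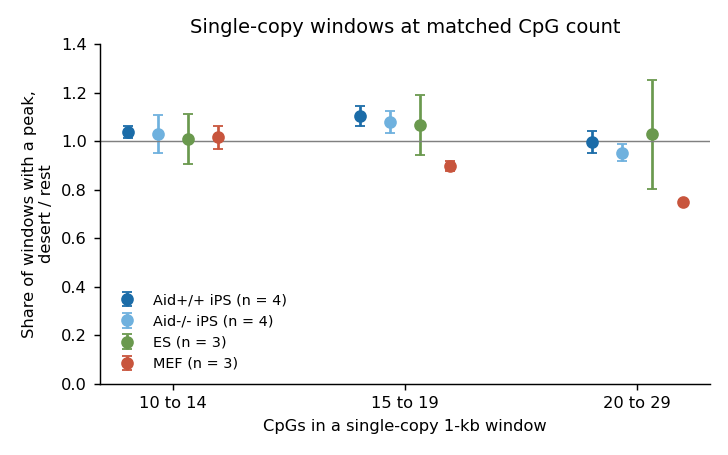
Ratio of the share of single-copy 1-kb windows that held a peak summit in deserts to that in the rest of the autosomes, in bands of 10 to 14, 15 to 19 and 20 to 29 CpGs per window. Points are group means, bars the SD, and the line at 1 marks equal shares. Lower and higher bands are not shown. MEFs lie near 1 in the lowest band (1.02) and fall to 0.899 and 0.749 in the next bands, whereas the other groups lie between 0.953 and 1.10.

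The profile over distance showed where the single-copy difference lay. Peak density was expressed as a percentage of the mean autosomal density of the sample. Inside genes, single-copy density was 150% ± 3.10 in Aid+/+ iPS cells and 164% ± 1.62 in MEFs. At 50 to 100 kb from genes, outside deserts, it was 75.5% ± 3.76 and 61.1% ± 2.81, and at 150 to 200 kb it was 54.3% ± 5.17 and 39.7% ± 0.266. The first desert band, at 200 to 250 kb, had 47.6% ± 2.64 and 37.5% ± 3.67. At 300 to 500 kb, Aid+/+ iPS clones had 30.4% to 35.3% and MEF cultures 24.7% to 28.0%. At 500 to 1000 kb the values were 18.96% ± 0.688 and 17.3% ± 0.986, and beyond 1000 kb 13.2% ± 0.926 and 15.8% ± 0.629. The lower single-copy density of MEFs was therefore not particular to deserts. It was present between genes well within 200 kb of them, and beyond 1000 kb the order was the opposite, with MEF cultures at 15.2% to 16.5% and Aid+/+ iPS clones at 11.9% to 13.8%, without overlap. For all peaks the densities beyond 1000 kb were 45.0% ± 5.04 in Aid+/+ iPS clones, 47.8% ± 5.48 in Aid-/- iPS cells, 55.1% ± 16.7 in ES cells and 68.1% ± 5.32 in MEFs.

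**Figure D3:**
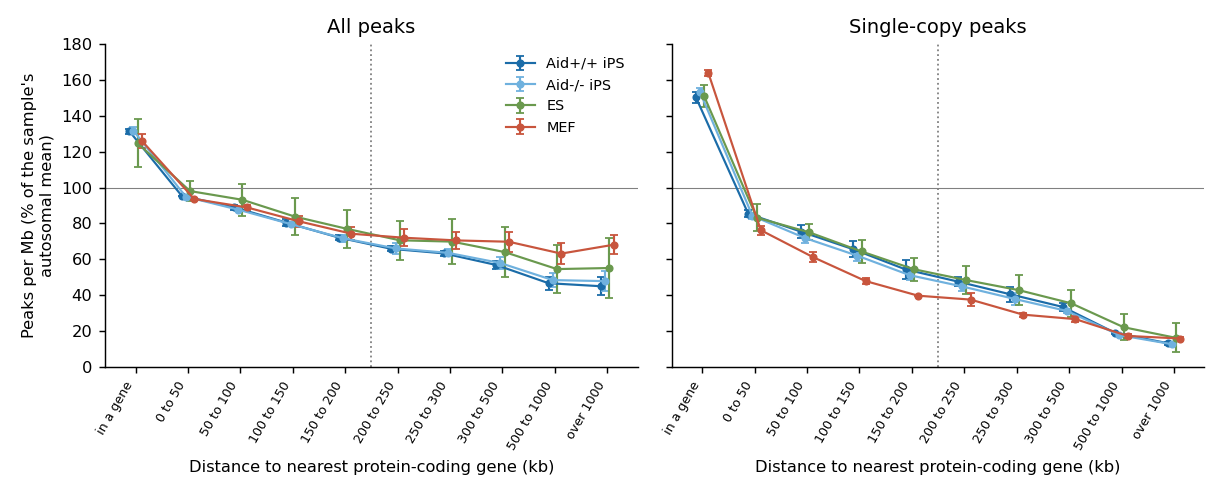
Peaks per Mb as a percentage of the sample's autosomal mean, in bands of distance (kb) from the nearest protein-coding gene, for all peaks and for single-copy peaks. Points are group means, bars the SD, and the dotted line marks 200 kb. Among all peaks MEFs are highest beyond 1000 kb (68.1%). Among single-copy peaks their mean is lowest in every band outside genes up to 1000 kb, with 61.1% at 50 to 100 kb and 37.5% at 200 to 250 kb.

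The longest deserts were then examined one by one. The longest, of 6.80 Mb on chromosome 7, holds no sequence in this assembly, and the 5 longest with sequence were taken. They lie between Celf4, an RNA-binding protein gene, and Pik3c3, a lipid kinase gene, on chromosome 18 (4.12 Mb); between Olfm4, a secreted glycoprotein gene, and Pcdh17, a protocadherin gene, on chromosome 14 (4.02 Mb); between Cntnap5b, a gene of the contactin-associated family, and the cadherin gene Cdh20 on chromosome 1 (3.88 Mb); between 4930555F03Rik and the lysosomal enzyme gene Aga on chromosome 8 (3.59 Mb); and between Dsel, a dermatan sulfate epimerase-like gene, and Cntnap5a on chromosome 1 (3.42 Mb). Between Cntnap5b and Cdh20 there were 84.8 ± 2.22 peaks in Aid+/+ iPS clones, 79.3 ± 4.50 in Aid-/- iPS cells, 62.7 ± 24.0 in ES cells and 56.3 ± 6.35 in MEFs (SD, n = 4, 4, 3 and 3). Single-copy peaks there numbered 16 to 23 in Aid+/+ iPS clones and 7 to 9 in MEFs, without overlap. Outside deserts single-copy peaks were fewer in MEFs as well (31.9 ± 6.17 per Mb in Aid+/+ iPS cells and 12.8 ± 4.05 in MEFs), so that the difference in this desert was near that of the rest of the autosomes. Between Olfm4 and Pcdh17 the Aid+/+ iPS clones had 12 to 14 single-copy peaks and the MEFs 2 to 6. The desert between 4930555F03Rik and Aga had 8 to 14 and 1 to 8, so that the groups met at 8, and that between Celf4 and Pik3c3 had 6 to 11 and 1 to 6, so that they met at 6. Between Dsel and Cntnap5a there were 7 to 14 and 2 to 5. These deserts were picked by length alone, and no test was made on them one by one.

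**Figure D4:**
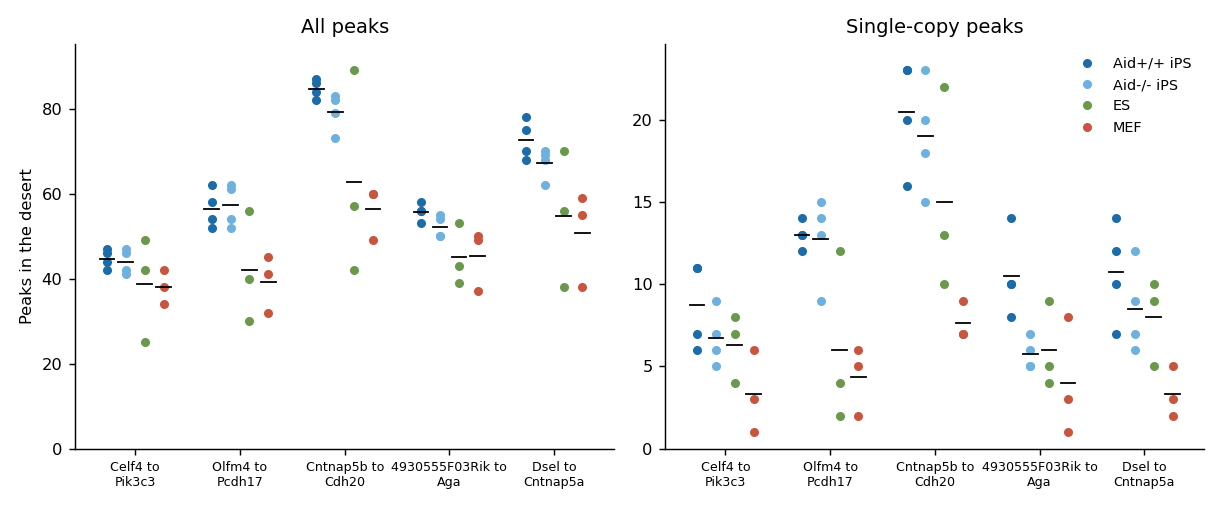
Number of peaks in the 5 longest deserts with sequence, for all peaks and for single-copy peaks. Points are samples and lines group means, ordered as Aid+/+ iPS, Aid-/- iPS, ES and MEF within each desert. Between Cntnap5b and Cdh20 the single-copy means are 20.5, 19, 15 and 7.67.

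Single regions were compared next. Peaks of the samples compared were merged into regions where they overlapped by 1 bp or more, and a region was in a desert by its midpoint. Among 12034 desert regions of Aid+/+ iPS cells and MEFs, 1501 (12.5%) had a peak in every Aid+/+ iPS clone and in no MEF culture, close to the 13.1% of all 134436 regions. The reverse, a peak in every MEF culture and in no Aid+/+ iPS clone, was found for 290 desert regions (2.41%), against 1.45% of all regions. The balance of these lists turned with equal numbers of peaks in each sample, where they held 267 and 933 desert regions. No share over all regions was computed there, so that this turn is not shown to be particular to deserts. A further 2999 desert regions (24.9%) had a peak in every sample of both groups, against 17.4% of all regions. Copy number separated the lists. Of the 1501 iPS regions 875 were single-copy, which was 16.1% of the single-copy desert regions, while 13.9% of single-copy regions elsewhere met this rule. Of the 290 MEF regions only 12 were single-copy (0.221% of single-copy desert regions, against 0.951% elsewhere), and 278 were multi-copy.

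The iPS regions with the strongest peaks were all single-copy. The region at chr4:152392002-152393832, 353 kb from Ajap1, a gene for an adherens junction protein, had 153, 198, 203 and 172 tags in the Aid+/+ iPS clones and 127, 113, 101 and 81 in the Aid-/- iPS clones. It had 33, 28 and 149 tags in the ES lines and no peak in any MEF culture. The region at chr18:81401390-81402411, 218 kb from Sall3, a zinc finger transcription factor gene of the spalt family, had 101, 121, 140 and 95 tags in the Aid+/+ iPS clones and 130, 107, 60 and 79 in the Aid-/- iPS clones. The third, at chr12:108109511-108110499 in the non-coding transcript 1700013N06Rik, had 69, 88, 68 and 69 tags in the Aid+/+ iPS clones. All 3 also had a peak in every Aid-/- iPS clone and every ES line. These regions were selected for their absence in MEFs, and the values describe them.

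The MEF regions with the strongest peaks were all multi-copy. The region at chr2:17051554-17053206, 212 kb from Nebl, which encodes an actin-binding protein of heart muscle, had 451, 366 and 320 tags in MEFs. No Aid+/+ iPS clone had a peak there, whereas Aid-/- iPS replicates 2 and 4 had 38 and 34 tags, and ES replicates 1 and 3 had 12 and 102. The region at chr2:64150241-64151886, 214 kb from Fign, a gene for a microtubule-severing enzyme, had 330, 301 and 246 tags in MEFs. The region at chr4:54459468-54460994, 497 kb from the zinc finger gene Zfp462, had 316, 289 and 228. Near Zfp462 ES replicate 3 had 175 tags and ES replicate 2 no peak, so that the ES lines differed among themselves by more than the iPS clones.

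Regions shared by all samples of both groups were compared in their tags by the edgeR quasi-likelihood test, with Benjamini-Hochberg adjustment over 23412 regions on all chromosomes. A threshold of 0.05 was used for the adjusted p. Of the 2999 desert regions tested, 589 (19.6%) had more tags in MEFs, against 23.7% of all regions, and 648 (21.6%) had fewer, against 19.5% of all regions. Single libraries moved the latter count, which was 201 without MEF replicate 3, 413 without MEF replicate 1 and 431 without Aid+/+ iPS replicate 3. The median log2 change of the 2999 desert regions was -0.13, and that of all regions was -0.05. Changes are relative to the TMM scaling, under which most regions move little. With the filtered tags of the file headers as library size, the median of all regions was -1.30 and that of desert regions -1.38, with 161 desert regions higher and 2518 lower in MEFs. These were 5.37% and 83.96% of desert regions, against 5.77% and 78.9% of all regions. With total tags, 235 desert regions (7.84%) were higher and 699 (23.3%) lower, against 9.29% and 22.5% of all regions. Among the 446 single-copy desert regions tested, 102 (22.9%) had more tags and 83 (18.6%) fewer under the TMM scaling. Of the single-copy regions tested outside deserts, 28.9% had more tags and 16.5% fewer. A region that had lost its peak in any sample was outside this test, so that it says nothing of the regions present in iPS cells alone.

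The desert regions with the smallest p for more tags in MEFs were at chr5:59115932-59118249 near the protocadherin gene Pcdh7, at chr8:52431539-52433315 near 4930555F03Rik and at chr17:60922241-60924176 near Nudt12, a nucleotide-hydrolysing enzyme gene. They lay 595, 1825 and 1769 kb from these genes, and their summit words had 2166, 1130 and 1526 copies. Near Pcdh7 the Aid+/+ iPS clones had 21, 16, 29 and 12 tags, and the MEFs had 461, 401 and 293. Per M filtered tags these counts were 1.25 to 2.27 in Aid+/+ iPS clones and 16.1 to 23.5 in MEFs. The log2 change was 4.99 ± 0.209 (SE; edgeR adjusted p = 1.46e-08), and it was 4.32 ± 0.181 near 4930555F03Rik and 4.39 ± 0.185 near Nudt12.

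The desert regions with the smallest p for fewer tags in MEFs had few copies, but this did not hold for the whole list. The 648 regions with fewer tags had a median of 218 copies, against 70 for the 589 with more tags and 92 for those not called. The region of smallest p, at chr16:3135815-3138118 and 454 kb from the olfactory receptor gene Olfr161, had 265, 238, 264 and 179 tags in Aid+/+ iPS clones and 47, 37 and 28 in MEFs. Its log2 change was -1.98 ± 0.188 (SE; edgeR adjusted p = 2.76e-06). The single-copy region at chr4:130749562-130750511, 238 kb from Matn1, a cartilage matrix protein gene, had 155, 154, 117 and 99 tags against 24, 29 and 18, a log2 change of -1.78 ± 0.244 (SE; edgeR adjusted p = 8.14e-05). The region at chr15:19930410-19935641, 659 kb from the acyl-CoA thioesterase gene Acot10, had 24 copies and a log2 change of -1.72 ± 0.236. In all 3 the MEF counts lay below every Aid+/+ iPS count.

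The word of 20 bases shown above was the most common one among the MEF regions. It was found by counting words of this length in the 290 regions, after their values had been seen, and its counts are therefore a description. It was present, on either strand, in 262 of the 290 desert regions with a peak in every MEF culture and in no Aid+/+ iPS clone (90.3%). None of the 1501 desert regions of the reverse kind held it, and 863 of all 12034 desert regions did (7.17%). Outside deserts it was in 484 of 1505 regions with a peak in MEFs alone (32.2%) and in 1844 of all 116919 regions (1.58%). It occurs in 0.264% of desert windows of 1 kb and in 0.128% of other windows. The class of repeat it belongs to was not determined, since no repeat annotation was used here.

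The tags of regions and peaks with the word are also a description, since the word was chosen from MEF regions of the same samples. The tested desert regions with it had a median of 404 copies, and their counts need not be independent. Of the 105 desert regions with the word that could be tested, 98 had more tags in MEFs and none had fewer, with a median log2 change of 2.40. Of the 2894 tested desert regions without it, 491 had more and 648 had fewer tags, with a median of -0.16. The word was not particular to deserts in this respect, since 242 of the 258 tested regions with the word outside deserts also had more tags in MEFs.

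Desert peaks that held the word numbered 470, 220, 258 and 321 in Aid+/+ iPS clones, 549, 472, 308 and 649 in Aid-/- iPS clones, 298, 74 and 830 in ES lines, and 855, 854 and 821 in MEFs. Their tags stood further apart. They made up 1.53%, 0.735%, 0.756% and 1.08% of the desert peak tags in Aid+/+ iPS clones and 1.71%, 1.70%, 1.16% and 2.51% in Aid-/- iPS clones. The ES lines had 1.41%, 0.511% and 6.31%, and the MEFs 20.4%, 19.6% and 20.7%. ES replicate 3, the C57BL6 line, lay between the MEFs and the other stem cells, and strain and line cannot be told apart there. The median tags of a desert peak with the word were 153, 130 and 100 in MEFs and 17 to 27 in Aid+/+ iPS clones. In other multi-copy desert peaks the median was 75.3 ± 11.7 in MEFs and 92.3 ± 18.9 in Aid+/+ iPS cells.

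**Figure D5:**
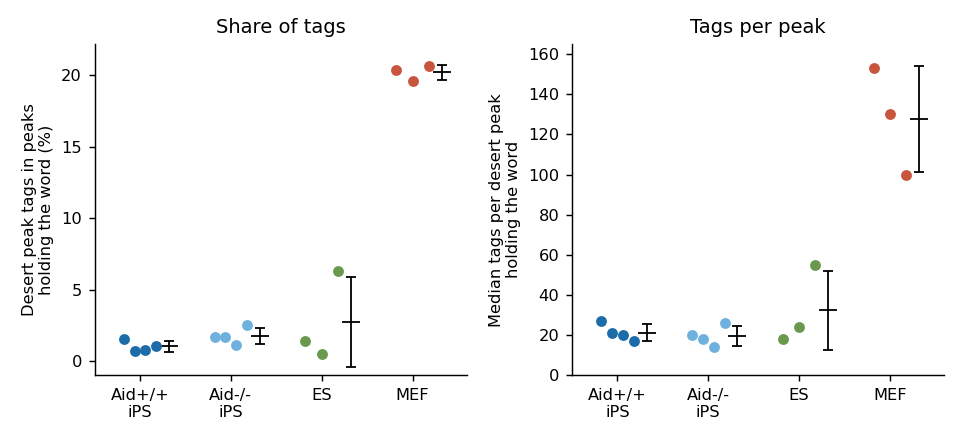
Desert peaks that held the 20-base word: their share of the desert peak tags (%) and their median tags per peak, with 1 point per sample and the mean ± SD beside. MEFs lie at 19.6% to 20.7% of tags and ES replicate 3 at 6.31%, while the remaining samples lie at or below 2.51%. The lower end of the ES bar on the left passes below 0 because the 3 lines differ widely.

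The desert shares without the peaks that held the word are given as a description, since the word was chosen for its presence in MEF regions and leaving it out must lower the MEF share. The share among multi-copy peaks was then 22.6% in MEFs and 22.4% in Aid+/+ iPS cells, and 23.9% ± 0.0985 and 22.7% ± 0.123 with these peaks (SD, n = 3 and 4). Over all peaks it was 11.4% in MEFs, 9.88% in Aid+/+ iPS cells and 9.94% in Aid-/- iPS cells. The corresponding shares of tags were 13.1% in MEFs and 13.5% in both iPS groups.

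Domains were examined with the tags of peaks summed over bins of 500 kb. A bin was counted as desert when at least 50% of its bases were over 200 kb from protein-coding genes. All peaks of a bin were summed, so that a desert bin could also hold tags of peaks outside deserts. Of 838 desert bins, 242 (28.9%) had more tags in MEFs than in Aid+/+ iPS cells and 154 (18.4%) fewer by the edgeR quasi-likelihood test. Of all 4817 bins, 22.4% had more and 28.8% fewer. The median log2 change was 0.05 in desert bins and -0.08 in all bins. With the tags of single-copy peaks alone, 22 of 825 desert bins (2.67%) had more and 85 (10.3%) fewer, against 16.1% and 11.7% of all bins. The median log2 change of desert bins was then -0.68, against -0.19 in all bins. With the filtered tags of the headers as library size, 23 desert bins (2.74%) had more tags and 679 (81.0%) fewer. Of all bins, 1.47% then had more and 88.0% fewer.

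The first bins of each list were examined for their kinds of sequence. The bin at chr4:17000001-17500000 near Mmp16, a membrane-bound metalloproteinase gene, had 407, 312, 368 and 327 tags in Aid+/+ iPS clones and 1622, 1310 and 1019 in MEFs (log2 change 2.58 ± 0.115, SE). Its single-copy tags were 132, 139, 92 and 107 in iPS clones and 30, 61 and 0 in MEFs, so that they were lower in MEFs while the total was higher. The bins at chr5:56500001-57000000 near Pcdh7 and at chr16:46500001-47000000 near Pvrl3, a cell adhesion gene, had log2 changes of 3.19 ± 0.153 and 3.53 ± 0.184. From the edge of the bin, the gene lay 280 kb away for Mmp16, 1109 kb for Pcdh7 and 1.36 kb for Pvrl3. In each of the 3 the largest peak was multi-copy. The bin at chr15:86500001-87000000 near Tbc1d22a, a gene of the TBC family of GTPase regulators, had 686, 840, 1044 and 916 tags in iPS clones and 99, 152 and 50 in MEFs (log2 change -2.48 ± 0.277). Its peaks numbered 14, 21, 26 and 32 against 3, 5 and 2, and nearly all of its tags were in single-copy peaks. The bins near Pdcd6ip and Vrk1 had log2 changes of -1.16 ± 0.131 and -1.26 ± 0.153. Tbc1d22a, Pdcd6ip and Vrk1 lay 171, 60.9 and 184 kb from the edges of their bins. These bins held 9.28, 8.38 and 12.4 CpGs per kb, against 5.61 in deserts. Near Pdcd6ip, single-copy peaks held 80, 69 and 39 of the 303, 291 and 173 tags in MEFs, so that most of the tags were in multi-copy peaks there.

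Loss of Aid was examined in the same way. Aid+/+ iPS replicates 2, 3 and 4 came from a processing run that held no Aid-/- iPS clone. Aid+/+ iPS replicate 1 shared its run with Aid-/- iPS replicates 1, 2 and 4, so that run and genotype overlapped in part. The desert share of single-copy peaks was lower by a mean difference of -0.334 points in Aid-/- iPS cells, with overlapping groups (exact permutation test, p = 0.0571; adjusted 0.114). Between Aid-/- and Aid+/+ iPS cells, 17 of 11669 desert regions (0.146%) had a peak in every Aid+/+ clone and in no Aid-/- clone, against 0.177% of all regions. The reverse held for 13 desert regions (0.111%), against 0.0373% of all regions, and all 13 were multi-copy. The 5635 desert regions present in all 8 clones were 48.3% of the desert regions, against 37.9% of all regions. By the edgeR quasi-likelihood test 0 of these 5635 regions had more tags and 0 had fewer in Aid-/- iPS cells, against 0% and 0.00196% of all regions. At an unadjusted p under 0.05 there were 151 of the 5635, against 1743 of all 50901 regions. DESeq2 called 1 lower desert region, and no share over all regions was computed for it.

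The region of smallest p for more tags in Aid-/- iPS cells lay at chr1:103988432-103989480 near Cntnap5b, had 983 copies and held the 20-base word. It had 30, 13, 15 and 13 tags in Aid+/+ iPS clones and 32, 34, 21 and 38 in Aid-/- iPS clones, which overlapped (edgeR adjusted p = 0.680). The desert region of smallest p in either direction was single-copy and lay at chr16:53983766-53984948, 1240 kb from Zpld1, a zona pellucida-like domain gene. It had 68, 73, 105 and 89 tags in Aid+/+ iPS clones and 20, 14, 17 and 17 in Aid-/- iPS clones. The counts did not overlap, and the log2 change was -1.86 ± 0.269 (SE), but the edgeR adjusted p of 0.0696 missed the threshold. Its 300 bases at chr16:53983879-53984178 held 11 CpGs and a GC content of 42.7%.
Genotype region near Zpld1: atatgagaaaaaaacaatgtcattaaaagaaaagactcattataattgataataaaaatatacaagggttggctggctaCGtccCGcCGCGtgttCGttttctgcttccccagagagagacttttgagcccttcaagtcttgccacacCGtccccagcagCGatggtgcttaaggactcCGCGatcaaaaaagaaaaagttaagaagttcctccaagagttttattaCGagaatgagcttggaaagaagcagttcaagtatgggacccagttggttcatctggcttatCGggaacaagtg

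ES cells differed from Aid+/+ iPS cells in few desert regions by presence, and the 3 lines differed widely from each other. The ES lines shared a processing run that held no Aid+/+ iPS clone, so that run and cell type cannot be told apart here. Of 12311 desert regions, 143 (1.16%) had a peak in every Aid+/+ iPS clone and in no ES line, against 0.842% of all regions, and 3 (0.0244%) had the reverse, against 0.0216%. The 3335 regions present in all 7 samples were 27.1% of the desert regions, against 17% of all regions. Of these, 0 had more tags in ES cells and 0 had fewer by the edgeR quasi-likelihood test, against 0.0123% and 0.00412% of all regions. At an unadjusted p under 0.05 there were 408 of the 3335, against 2448 of all 24299 regions. DESeq2 called 32 higher and 29 lower desert regions. Without ES replicate 3 the edgeR test called 143 higher and 165 lower desert regions, so that this line decided the count. For these 2 alternatives no share over all regions was computed. The region of smallest p for fewer tags, at chr3:47976103-47977189 near 1700018B24Rik, had 175, 234, 229 and 205 tags in Aid+/+ iPS clones and 20, 18 and 88 in ES lines (log2 change -1.97 ± 0.367, SE; edgeR adjusted p = 0.175). The region of smallest p for more tags, at chr14:59277083-59278120 near Rpl13-ps3, had 30, 26, 20 and 19 against 58, 59 and 46 (log2 change 1.90 ± 0.366; edgeR adjusted p = 0.175). It was single-copy by the median of its 3 words. However, the 300 bases at chr14:59277424-59277723 held 1 CpG and a long run of the repeated word ttaggg across the summit. Neither of these regions passed the threshold, although the counts did not overlap.

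Finally, 2324 of the 13102 desert regions of all 14 samples (17.7%) had a peak in every sample, against 9.14% of regions elsewhere. Multi-copy sequence made up most of them. It gave 1987 of 6709 multi-copy desert regions (29.6%), whereas 337 of 6393 single-copy desert regions (5.27%) were in all samples. Outside deserts these shares were 27.9% and 5.05%, so that within each kind of sequence deserts and the rest of the genome were close.

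The region with the most tags in all samples lay at chr17:39979481-39986123, 358 kb from Pgk2, a phosphoglycerate kinase gene of the testis, over the annotated pseudogene AY036118. It had 13882, 16574, 6432 and 5613 tags in Aid+/+ iPS clones, 7225, 7209, 4569 and 19720 in Aid-/- iPS clones, 2290, 20427 and 12301 in ES lines, and 19211, 18504 and 18060 in MEFs. Per M filtered tags it ranged from 224 to 1721, and the groups overlapped. Its summit words occur once in the assembly, which does not show how many copies the cells hold. The 300 bases at chr17:39981152-39981451 held 39 CpGs and are shown because this region moved the desert share of single-copy tags.
Region near Pgk2: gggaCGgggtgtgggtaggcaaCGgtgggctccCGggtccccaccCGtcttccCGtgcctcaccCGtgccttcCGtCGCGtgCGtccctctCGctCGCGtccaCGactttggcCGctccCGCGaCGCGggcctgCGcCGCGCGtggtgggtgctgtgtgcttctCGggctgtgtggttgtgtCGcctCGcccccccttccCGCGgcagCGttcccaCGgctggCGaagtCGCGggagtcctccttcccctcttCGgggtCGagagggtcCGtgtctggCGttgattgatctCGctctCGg
The next regions by this rule, at chr14:90694109-90697305 near Gm10110 and at chr1:110309999-110313643 near the protease inhibitor gene Serpinb8, had 38.6 to 80.4 and 36.2 to 80.0 tags per M filtered tags over the 14 samples.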

How the data were processed

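MBD-seq peaks of 14 samples were analysed: 4 Aid+/+ iPS, 4 Aid-/- iPS, 3 ES and 3 MEF samples, grouped by their titles. Per the labels and the submitters' processing notes, which name BWA 0.5.9rc1, CASAVA 1.8.1, MACS 1.4.1 and mm9, reads of 75 bases were mapped and peaks were called in each sample. Per the file headers, MACS ran without a control at its threshold of 1e-05, with at most 2 tags kept per position, and 5 samples carry version 1.4.0rc2. Processing runs were read from the version and the input folder in the headers. The authors deposited for each peak the count of tags, its p-value on a −log10 scale multiplied by 10, and the fold enrichment over the local background. Counts of different peaks in repeated sequence need not be independent, and p-values measure the spread between clones, lines and cultures. The exact tests took the clones of a genotype as independent, although their titles place them in pairs of the same clone series. Genes were those of GENCODE vM1 (21418 protein-coding genes on the autosomes), on the build of the peaks.

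Group means of per-sample measures were compared by two-sided exact permutation tests with Benjamini-Hochberg adjustment over 20 tests. Tags of merged regions and of 500-kb bins were tested with edgeR 4.0.16 (R 4.3.3, quasi-likelihood, TMM), which was checked on simulated counts, and with DESeq2 1.42.0 as an alternative. Python 3.11.15 (numpy 2.4.6, pandas 2.3.3, numba 0.67.0, matplotlib 3.10.9) was used for the rest. The members, lists and tests were chosen with earlier results of these data known. Regions were named by rule: the 5 longest deserts; the 3 desert regions and bins of smallest p in each direction (2 for the genotypes and ES, of which the text gives the first); the 3 of each presence list whose lowest peak significance was highest; and the 3 with the highest lowest tags per M filtered tags in all samples. Alternatives were other distances, all annotated genes, equal peak numbers, peaks at p of 1e-10 or less, other overlaps, library sizes and filters, DESeq2, the clone series as a block, single runs and leaving out each sample. Copy number, the shared word and the region of most tags were added after seeing the data. Depth was 6.65 to 19.6 M filtered tags (M, mega).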

Additional observations from a re-analysis of the deposited data

Results flagged for a closer look

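Aid-/- iPS replicate 3 lay apart from the other 3 clones of its group in the desert share of single-copy peaks. It had 5.29%, whereas the others had 4.87%, 4.88% and 4.86%, and the gap to the nearest was 0.956 of the whole range. Chance alone marks about 1 in 20 groups in this way, and 16 groups were examined. This clone was the only one of its group in its processing run, and had the fewest filtered tags of all samples (6.65 M). The part of run and depth in its value was not tested.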

How the results depend on the processing

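No paired analysis was possible because the labels number the MEF cultures alone and the numbers of the other samples follow no label, while the clone series of the iPS cells as a block called 0 regions in either direction between genotypes, as without it. Of the comparisons run under alternatives, 394 stayed the same, 71 changed direction, 61 moved, 34 lost the threshold and 2 gained it. For differences between groups, the same meant an unchanged direction and side of the threshold. For counts of regions and bins it meant a count within a fixed ratio of the main count, and moved meant a count outside this ratio. The desert sequence was not masked for repeats, since the genome file marks none. Except where stated, the cause of a change was not tested.

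Values below are differences, first group minus second. Beyond 100 kb, the peak share of MEFs against Aid-/- iPS cells was 2.43 points (exact permutation test, p = 0.0857) and the tag share between genotypes -0.0747. Beyond 500 kb, the ratio of median tags was -0.00742 for MEFs against Aid+/+ iPS and -0.0509 against ES cells, and the single-copy share 0.0413 against Aid-/- iPS cells. At peak p of 1e-10 or less, the ratio of median tags of MEFs was -0.0461, -0.0330 and -0.0493 against Aid+/+ iPS, Aid-/- iPS and ES cells, and the single-copy share -1.75 against Aid+/+ iPS cells. With equal peak numbers, the peak share was 0.703 and 0.815 for MEFs against Aid+/+ and Aid-/- iPS cells, -0.112 between genotypes and -0.399 for ES against Aid+/+ iPS cells. The tag share was then -0.312, -0.114 and -0.198 for MEFs against Aid+/+ iPS, against Aid-/- iPS and between genotypes. The CpG-standardised ratio was -0.0116 for MEFs against Aid+/+ iPS, -0.0308 between genotypes and -0.200 for ES against Aid+/+ iPS cells. The ratio of median tags was -0.00270 and -0.0792 for MEFs against Aid-/- iPS and ES cells and 0.0233 between genotypes, and the single-copy share -1.71 for MEFs against Aid+/+ iPS cells.

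In single-copy sequence, the peak share was -0.936, -0.603 and -1.35 for MEFs against Aid+/+ iPS, Aid-/- iPS and ES cells and -0.334 between genotypes. The tag share was -0.929 and -0.747 against the iPS groups and -0.182 between genotypes. The CpG-standardised ratio was -0.229, -0.196 and -0.125, then -0.0329 between genotypes and -0.104 for ES against Aid+/+ iPS cells. The ratio of median tags was -0.156, -0.165 and -0.157, and 0.00913 between genotypes. In single-copy sequence with equal peak numbers, the same quantities in the same order were -1.71, -1.44, -1.90 and -0.265 for peaks, -1.36, -1.22 and -0.135 for tags, -0.394, -0.341, -0.227, -0.0527 and -0.167 for the CpG-standardised ratio, and -0.0572, -0.0504 and -0.0766 for median tags. Within 1 processing run, the genotypes differed by -0.135 in peak share, -1.23 in tag share and -0.0111 in the CpG-standardised ratio. In the run of MEF replicate 1, MEF against Aid-/- iPS was 2.50 in peak share and -0.944 in single-copy share, and MEF against ES 0.225 in tag share. Without peaks holding the word, which must lower the values of MEFs since the word was chosen from their regions, the peak share of MEFs against Aid-/- iPS cells was 1.43 (exact permutation test, p = 0.0857), and the tag share -0.458 and -0.439 against Aid+/+ and Aid-/- iPS cells and -0.0194 between genotypes.

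Counts of regions moved with the definition of deserts and the number of peaks. Except with other library sizes and with single-copy tags, no share over all regions or bins was computed under these alternatives. Regions of every Aid+/+ iPS clone and no MEF culture numbered 2664 beyond 100 kb, 453 beyond 500 kb and 267 with equal peak numbers, and the reverse 120 beyond 500 kb, 933 with equal peak numbers and 542 at p of 1e-10. The balance between these lists thus turned with equal peak numbers. Regions of Aid+/+ clones alone among iPS cells numbered 29 beyond 100 kb, 6 beyond 500 kb and 27 at p of 1e-10, and those of Aid-/- clones alone 3 beyond 500 kb, 2 with equal peak numbers and 1 at p of 1e-10. Regions of Aid+/+ iPS clones and no ES line numbered 222 beyond 100 kb and 60 beyond 500 kb. The reverse numbered 0 beyond 500 kb, 31 with equal peak numbers, 5 when at least 50% of a region had to be covered and 6 for stretches common to the group. Higher and lower regions in MEFs numbered 236 and 230 beyond 500 kb, and 161 and 2518 with filtered tags as library size. Lower ones were 985 beyond 100 kb, and higher ones 235 with total tags. DESeq2 called 1 lower region between genotypes, as edgeR did with total tags, and 32 higher and 29 lower in ES cells, where edgeR called 1 lower beyond 100 kb. Higher and lower bins numbered 103 and 50 beyond 500 kb, 4 and 8 by number of peaks, 22 and 85 by single-copy tags, and 23 and 679 with filtered tags. Lower bins were 248 beyond 100 kb, and higher bins 67 with total tags.

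Leaving out 1 sample, no exact test of 3 against 3 or 2 against 4 samples can reach 0.05. The peak share of MEFs then ranged from 2.03 to 3.02 against Aid+/+ iPS and from 1.80 to 2.79 against Aid-/- iPS cells, the CpG-standardised ratio from 0.170 to 0.228, and the single-copy share against Aid-/- iPS cells from -0.721 to -0.495. Between genotypes the peak share ranged from -0.0843 to 0.405, the tag share from -0.721 to 0.509, the CpG-standardised ratio from -0.0119 to 0.0621 and the ratio of median tags from -0.0913 to 0.0138. For ES against Aid+/+ iPS cells these were -0.00281 to 2.45, -0.745 to 3.47, -0.0683 to 0.117 and -0.0546 to 0.157, and the single-copy share -0.342 to 0.953, with every lowest value from leaving out ES replicate 2. For MEFs against ES cells the tag share ranged from -2.29 to 1.92 and the ratio of median tags from -0.0615 to 0.150. Regions of Aid+/+ iPS clones and no MEF culture numbered 1523 to 2471 and the reverse 293 to 469, both highest without Aid+/+ iPS replicate 1. Higher regions in MEFs numbered 469 to 747 and lower ones 201 to 801, with 201 without MEF replicate 3, 413 without MEF replicate 1 and 431 without Aid+/+ iPS replicate 3. Lower bins numbered 101 to 139, lowest without Aid+/+ iPS replicate 2. Between genotypes, regions of Aid+/+ clones alone numbered 18 to 136, highest without Aid+/+ iPS replicate 1, those of Aid-/- clones alone 13 to 49, highest without Aid-/- iPS replicate 3, and lower regions 0 to 1. For ES cells, regions of Aid+/+ iPS clones alone numbered 151 to 1724 and higher and lower regions 0 to 143 and 0 to 165, highest without ES replicate 3, and regions of ES lines alone 3 to 42, highest without ES replicate 2. At this depth, a peak missing from a list was not shown to be unmethylated.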
